A study of Mus musculus with 9 samples.

Results

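The genes described here are 35 enzymes and carriers that bring glucose into the cell, break it down by glycolysis, or build and dismantle glycogen. They were taken by gene symbol from the 49315 Ensembl genes of each count file, and all 35 symbols were found. None was chosen on its measured level, though earlier results of these data were known when the genes were chosen. The material was brown adipose tissue, the heat-producing fat depot, of 9 male C57Bl/6J mice with diet-induced obesity. All were 14 weeks old, were acclimated for 3 weeks, were housed singly and not at thermoneutrality, and ate a 60% high fat diet until they weighed about 50 g. Both groups shared all of this, and there was no lean or untreated group. One group of 4 received daily subcutaneous vehicle and the other, of 5, daily subcutaneous cotadutide, a peptide drug that activates both the receptor of glucagon-like peptide 1 and the glucagon receptor, for 28 days. Each mouse gave 1 library of polyadenylated RNA from 30 mg of tissue. The comparison asked how these genes differed between the cotadutide and the vehicle mice, and whether the isoforms typical of skeletal muscle moved differently from those of liver or of most tissues.

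Glucose enters a cell through transporters of the Slc2a family, is trapped by hexokinase as glucose 6-phosphate, and is then either split by glycolysis or stored as glycogen. Phosphofructokinase is the committed and most tightly controlled step of glycolysis, and the Pfkfb enzymes set the level of its activator, fructose 2,6-bisphosphate. Several steps have a muscle isoform beside one of liver, brain or most tissues, encoded by separate genes. Brown fat takes up glucose avidly when it is activated, and both brown adipocytes and muscle fibres carry the insulin-responsive transporter encoded by Slc2a4.

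Library totals ran from 10.8 to 25.1 M counts, and the 35 genes took between 1.70% and 2.81% of the counts of a library. Mitochondrially encoded RNA took 17.5% to 21.1%. Ucp1, which defines brown adipocytes, stood at 4781 ± 961 CPM (counts per 1 M counts of the scaled library) in the vehicle group and at 5886 ± 759 CPM under cotadutide, so the labelled tissue carried its defining marker. Levels are in CPM, given as mean ± SD (n = 4 vehicle mice, n = 5 cotadutide mice), and values per mouse are given in the order of the mouse numbers. Of 28 skeletal muscle markers, all detected, the summed level was 29800 to 59400 CPM in vehicle and 6680 to 25600 CPM in cotadutide mice, without overlap. Vehicle mouse 4 had the most muscle mRNA and cotadutide mouse 3 the least. Cotadutide mouse 3 also stood apart in T, NK and B cell markers, with a sum of 39.5 CPM.

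The glucose and glycogen genes did not move as one. Of the 35, 34 had enough counts to be tested, and 5 fell under cotadutide: Pfkm, Pfkfb4, Ugp2, Phka1 and Phkg1. None rose, and 29 did not pass (edgeR's quasi-likelihood test, Benjamini-Hochberg adjusted p under 0.05 over 14747 genes). Over all genes tested, 9.34% were called lower and 9.31% higher, 18.7% in all, so 5 lower of 34 was not far from the background. By unadjusted p under 0.05, 11 of the 34 passed, against 35.7% of all genes. DESeq2 called 2 higher (Pfkfb1 and Ppp1r3d) and 8 lower, against 11.4% and 11.6% of all genes. The vehicle and cotadutide mice did not overlap for 6 of the 34 tested. Pfkm, Eno3, Pygm, Ugp2 and Phka1 were lower in every cotadutide mouse, and Ppp1r3d was higher. Over all genes, 7.79% had non-overlapping groups with cotadutide lower and 8.06% with cotadutide higher. The median log2 fold change of the 34 genes was -0.12, against 0.003 over all genes, with 24 negative and 10 positive. The 6 genes of muscle isoforms or muscle subunits (Pfkm, Pygm, Pgam2, Eno3, Phka1 and Phkg1) had a median of -1.08, and the other 28 tested one of -0.07. The number of lower calls changed with single libraries left out, among the 35 genes as over all genes. Among the 35 it was 0 without vehicle mouse 1, 2 or 3 or without cotadutide mouse 2, and 1 without cotadutide mouse 4. It was 2 without vehicle mouse 4, 3 without cotadutide mouse 3, and 8 without cotadutide mouse 1 or 5. Over all genes the lower calls ran from 92 to 1724 in these fits. Their share of all genes was 0.621%, 0.708%, 3.17% and 10.7% without vehicle mice 1 to 4. It was 11.9%, 2.38%, 5.61%, 7.44% and 9.51% without cotadutide mice 1 to 5. By edgeR's unadjusted p under 0.05, 10, 11 and 16 of the 35 genes passed without vehicle mice 1 to 3. Over all genes, 4010 of 14816, 4359 of 14823 and 4440 of 14923 passed in these fits. Without cotadutide mouse 2, 10 of 34 passed, against 4247 of 14668 over all genes.

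**Figure D1:**
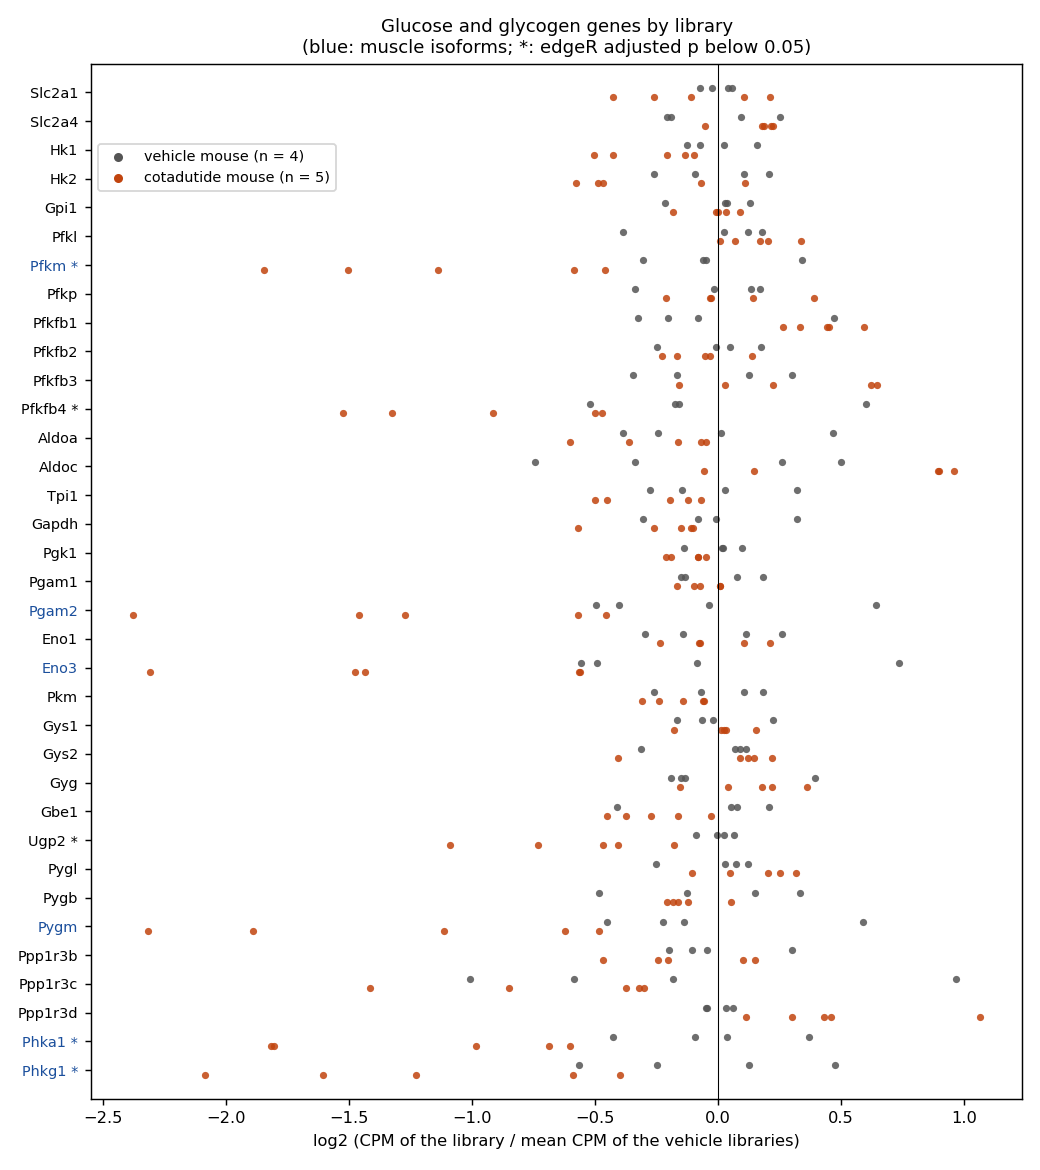
Level of each of the 35 genes in each library, as log2 of its CPM over the mean CPM of the 4 vehicle libraries (horizontal axis), with grey points for vehicle and orange points for cotadutide mice. The muscle isoforms, named in blue, spread far to the left in cotadutide mice (Pygm from 170 to 607 CPM), while most other genes stay near the line at 0.

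The estimates of the muscle isoforms and subunits lay close together, with log2 fold changes of -1.13 to -1.01, of which those of Pfkm, Phka1 and Phkg1 passed the test and those of Pygm, Pgam2 and Eno3 did not. The promoters of the latter 3 are shown beside those of their liver or widely expressed counterparts. The windows run from 250 bases before to 50 after the RefSeq transcript start that lies nearest the start of the gene model (build GRCm38.p6), and 32 of the 35 genes had one. No window was held for Slc2a4, Gys2 and Ppp1r3b. Capitals mark 2 short motifs, chosen after the windows were seen. CAGCTG is the E-box core read by muscle transcription factors of the MyoD family and reads the same on both strands. GGGCGG, or CCGCCC on the other strand, is the GC box of housekeeping promoters. No CAGCTG shares bases with a GC box, while the 2 GC boxes of Pgam1 share bases with each other. Pygm encodes muscle glycogen phosphorylase (window chr19:6384158-6384457, plus strand) and Pygl the liver enzyme (chr12:70227634-70227933, minus strand). Pgam2 encodes muscle phosphoglycerate mutase (chr11:5803747-5804046, minus strand) and Pgam1 the widely expressed one (chr19:41911621-41911920, plus strand). Eno3 encodes muscle enolase (chr11:70656926-70657225, plus strand) and Eno1 the widely expressed one (chr4:150236458-150236757, plus strand).
Pygm: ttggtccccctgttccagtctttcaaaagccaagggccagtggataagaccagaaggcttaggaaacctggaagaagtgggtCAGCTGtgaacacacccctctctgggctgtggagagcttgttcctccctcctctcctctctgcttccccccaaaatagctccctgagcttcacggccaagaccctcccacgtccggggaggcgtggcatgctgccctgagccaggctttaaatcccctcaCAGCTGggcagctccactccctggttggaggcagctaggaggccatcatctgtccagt
Pygl: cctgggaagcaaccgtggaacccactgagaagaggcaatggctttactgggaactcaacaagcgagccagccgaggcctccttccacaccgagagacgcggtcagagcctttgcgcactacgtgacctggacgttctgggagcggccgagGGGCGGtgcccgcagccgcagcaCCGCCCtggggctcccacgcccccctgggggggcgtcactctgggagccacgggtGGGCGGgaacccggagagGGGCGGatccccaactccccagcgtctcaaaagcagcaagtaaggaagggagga
Pgam2: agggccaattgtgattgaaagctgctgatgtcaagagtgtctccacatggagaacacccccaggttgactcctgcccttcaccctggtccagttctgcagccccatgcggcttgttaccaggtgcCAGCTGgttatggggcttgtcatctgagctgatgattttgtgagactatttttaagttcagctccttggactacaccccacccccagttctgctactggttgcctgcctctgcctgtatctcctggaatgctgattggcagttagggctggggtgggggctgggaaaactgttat
Pgam1: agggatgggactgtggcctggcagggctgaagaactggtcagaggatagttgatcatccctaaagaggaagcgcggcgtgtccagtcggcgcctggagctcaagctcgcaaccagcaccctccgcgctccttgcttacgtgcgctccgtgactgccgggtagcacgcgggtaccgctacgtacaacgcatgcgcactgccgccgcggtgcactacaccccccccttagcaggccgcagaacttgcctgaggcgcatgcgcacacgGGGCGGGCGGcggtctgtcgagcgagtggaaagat
Eno3: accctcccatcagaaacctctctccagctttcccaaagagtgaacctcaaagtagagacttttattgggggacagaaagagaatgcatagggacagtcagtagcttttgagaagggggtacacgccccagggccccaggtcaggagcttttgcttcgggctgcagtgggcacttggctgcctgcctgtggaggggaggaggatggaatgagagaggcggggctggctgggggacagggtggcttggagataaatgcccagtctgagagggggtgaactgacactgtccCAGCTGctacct
Eno1: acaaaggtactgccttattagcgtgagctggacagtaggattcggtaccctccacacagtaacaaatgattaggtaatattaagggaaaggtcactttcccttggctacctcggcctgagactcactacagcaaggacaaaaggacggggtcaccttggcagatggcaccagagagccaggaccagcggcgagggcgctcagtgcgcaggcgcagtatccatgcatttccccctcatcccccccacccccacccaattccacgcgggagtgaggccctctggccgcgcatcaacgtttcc

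In these windows Pygm held 2 CAGCTG motifs, and Pgam2 and Eno3 held 1 each, with no GC box. Pygl held 4 GC boxes and Pgam1 held 2, with no CAGCTG, and Eno1 held neither. Among all the glucose and glycogen genes with a window, CAGCTG was found in 4 of 6 muscle isoforms (also Phka1, not Pfkm or Phkg1) and in 5 of 26 others. Of 32851 mouse promoter windows of the same length, 16.3% held it. The GC box was found in 1 of 6 muscle isoforms and 19 of 26 others, against 35.7% of all windows. A match describes the letters only. The nearest RefSeq start lay 3805 bases from the start of the gene model for Pygl, 8661 for Aldoa, 13205 for Pfkfb2 and 19461 for Phkg1. Starts nearer to those of these gene models are thus not covered. Pfkm and Pfkfb1 had 4 windows, Eno1, Aldoa and Pfkfb2 had 3, and Hk1, Pfkfb3, Aldoc, Pkm and Ugp2 had 2. Only the nearest window of each was used, so the motif counts leave out the other starts of these genes.

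Per length of transcript, the aldolase Aldoa was the most abundant of the 35 genes, at 4270 CPM per kb in vehicle and 3630 in cotadutide mice. It was followed by Gapdh (2090 and 1780), Eno1 (1220 in both) and the pyruvate kinase Pkm (1140 and 1020). Of the muscle isoforms, Eno3 stood highest, at 571 ± 263 CPM per kb in vehicle and 261 ± 121 in cotadutide mice. The order of Eno1 and Eno3 in vehicle mice depended on the length used, since with the files' own gene lengths they stood at 461 and 514 CPM per kb. The transporters were lower, with Slc2a4 at 120 CPM per kb in vehicle and 133 in cotadutide mice, and Slc2a1 at 2.36 and 2.23. The brain aldolase Aldoc was near the floor, at 0.206 to 0.669 CPM (not per length), and was not tested. In vehicle mice the ranges of mean ± SD overlapped between neighbours in this order such as Eno1 (1220 ± 210) and Pkm (1140 ± 152), or Gpi1 (285 ± 28.0) and Pfkl (226 ± 37.1).

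**Figure D2:**
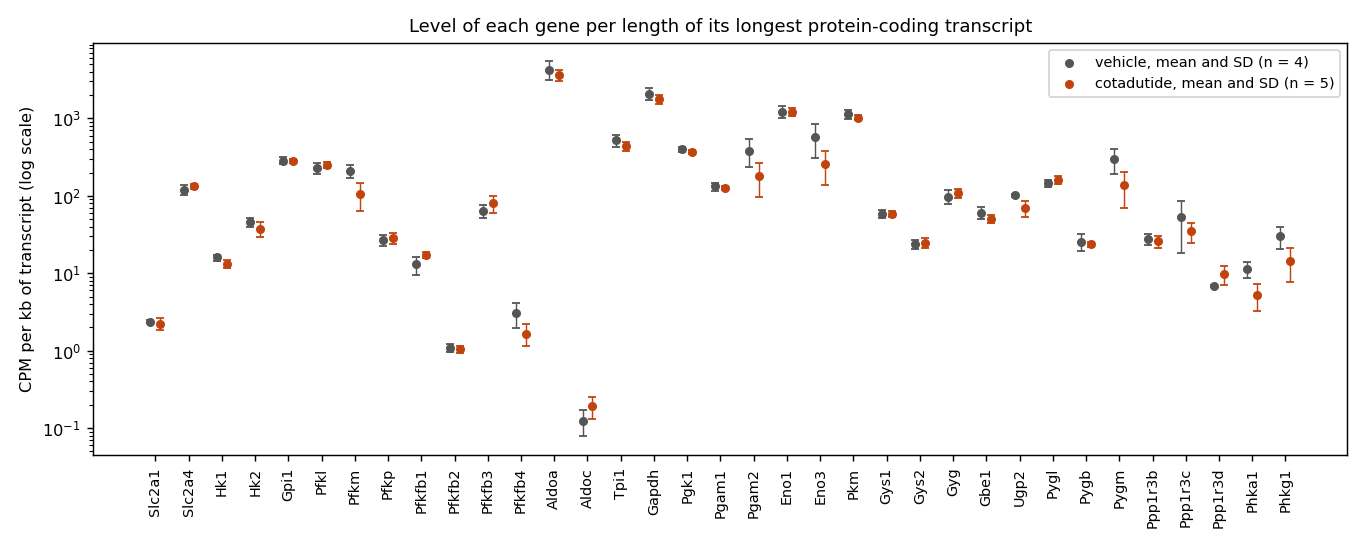
Level of each gene in CPM per kb of its longest protein-coding transcript (vertical axis, log scale), in vehicle (grey) and cotadutide (orange) mice, as mean with SD. Levels run from Aldoc, under 0.2 CPM per kb, to Aldoa at 4270 CPM per kb in vehicle mice, and the muscle isoforms Pfkm, Pgam2, Eno3 and Pygm are the abundant genes with the widest gaps between groups.

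Glucose carriers differed little. Slc2a4 encodes GLUT4, the carrier that insulin brings to the cell surface, and stood at 262, 322, 264 and 359 CPM in vehicle mice and at 344, 342, 291, 350.4 and 352 CPM in cotadutide mice. The groups overlapped, and the difference did not pass (log2 fold change 0.15, SE 0.11, 95% interval -0.11 to 0.42, adjusted p = 0.347 by edgeR). Slc2a1 encodes GLUT1, the basal carrier of most cells, and was scarce in this tissue. It stood at 7.54, 7.98, 7.31 and 7.89 CPM in vehicle and at 8.90, 6.41, 7.11, 8.26 and 5.71 CPM in cotadutide mice (log2 fold change -0.07, SE 0.14, 95% interval -0.39 to 0.26, adjusted p = 0.758 by edgeR). Per length of transcript, Slc2a4 made up 98.0 ± 0.23% of the mRNA of the pair in vehicle and 98.3 ± 0.308% in cotadutide mice. The count ratio of Slc2a4 to Slc2a1 did not differ beyond the spread of the mice (exact permutation p = 0.183, adjusted over 8 ratios 0.243).

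Hexokinases phosphorylate the incoming glucose. Hk2, the insulin-regulated form of muscle and fat, stood at 236, 271, 210.1 and 291 CPM in vehicle and at 169, 182, 179.8, 272 and 240.2 CPM in cotadutide mice. The lowest 3 cotadutide mice lay under every vehicle mouse, and the others overlapped (log2 fold change -0.27, SE 0.15, adjusted p = 0.223 by edgeR). Hk1, the form of brain and most tissues, stood at 76.2, 69.5, 62.6 and 64.9 CPM in vehicle and at 59.1, 50.8, 48.2, 63.9 and 62.3 CPM in cotadutide mice (log2 fold change -0.27, SE 0.10, adjusted p = 0.0814 by edgeR). Both thus had the same estimated decrease, and the ratio of Hk2 to Hk1 was almost the same in the groups (difference in log2 ratio -0.02, exact permutation p = 0.905). Gpi1, which turns glucose 6-phosphate into fructose 6-phosphate, was at 822 ± 80.7 and 815 ± 56.0 CPM (log2 fold change -0.01, edgeR adjusted p = 0.943).

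Phosphofructokinase is a tetramer whose subunits come from 3 genes, and of these the muscle subunit passed the test. Pfkm (ENSMUSG00000033065, chr15:98092589-98132447 in the mm10 coordinates of the files) stood at 486, 582, 576 and 762 CPM in vehicle mice and at 401, 212, 167, 273 and 437 CPM in cotadutide mice. Every cotadutide mouse lay under every vehicle mouse, and the mean fell 2.02 times (log2 fold change -1.01, SE 0.26, adjusted p = 0.0285 by edgeR). The call held without cotadutide mouse 1, 3 or 5. Leaving out any other mouse ended it, with an edgeR adjusted p of 0.0673, 0.0677, 0.0641 and 0.0723 without vehicle mice 1 to 4 and 0.0911 and 0.0635 without cotadutide mice 2 and 4. Pfkl, the liver subunit, was at 857, 954, 645 and 918 CPM in vehicle and at 1065, 972, 849, 885 and 951 CPM in cotadutide mice (log2 fold change 0.16, SE 0.12, adjusted p = 0.36 by edgeR). Pfkp, the platelet subunit, was at 110.2, 123, 88.2 and 125.6 CPM in vehicle and at 146, 109, 96.3, 109 and 123 CPM in cotadutide mice (log2 fold change 0.07, SE 0.13, adjusted p = 0.76 by edgeR). Both overlapped between groups. Reads of Pfkp and Pitrm1, which overlap on opposite strands, could be confused, since the strand setting of the counting is not given.

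Of the 4 bifunctional Pfkfb enzymes, which make and destroy the activator of phosphofructokinase, Pfkfb4 passed the test. Pfkfb4 was scarce and fell 1.85 times. It stood at 7.47, 9.58, 9.49 and 16.3 CPM in vehicle and at 7.56, 3.72, 4.27, 5.67 and 7.71 CPM in cotadutide mice (log2 fold change -0.88, SE 0.27, adjusted p = 0.0441 by edgeR). The highest 2 cotadutide mice overlapped the lowest vehicle mouse. Its call held only without cotadutide mouse 1 or 5, with an edgeR adjusted p of 0.0639 to 0.0974 without any other mouse. Pfkfb1, the form of liver and muscle, was at 19.4, 21.1, 23.0 and 33.7 CPM in vehicle and at 33.0, 36.7, 29.2, 33.2 and 30.6 CPM in cotadutide mice. Only vehicle mouse 4 overlapped the cotadutide mice, and the difference did not pass (log2 fold change 0.43, SE 0.15, adjusted p = 0.0635 by edgeR). Without vehicle mouse 4 the estimate was 0.62 and passed (adjusted p = 0.002 by edgeR). Pfkfb3, the inducible form, was the most abundant of the 4 per length, at 64.3 CPM per kb in vehicle mice. Its level was 309 ± 61.6 and 382 ± 93.7 CPM (log2 fold change 0.31, edgeR adjusted p = 0.266), and Pfkfb2, the heart form, was at 4.81 ± 0.571 and 4.60 ± 0.455 CPM (log2 fold change -0.06, edgeR adjusted p = 0.792). Pfkfb2 overlaps Yod1 on the other strand, a gene with a mean of 129.2 counts per library against 85.8. Pfkfb1 likewise overlaps Apex2 (155.2 against 508.4), so some reads of both pairs may be confused.

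The later steps of glycolysis, from aldolase to pyruvate kinase, held the most abundant genes. Those of the widely expressed forms did not pass. Aldoa, which splits fructose 1,6-bisphosphate, stood at 5595, 6669, 5064 and 9157 CPM in vehicle and at 6302, 5918, 4356, 5155 and 6396 CPM in cotadutide mice (log2 fold change -0.24, SE 0.17, adjusted p = 0.356 by edgeR). Vehicle mouse 4 stood far above the others, and without it the log2 fold change was -0.04. Aldoa is also the aldolase of muscle, and it has no muscle-only counterpart among the 35 genes. Tpi1 (log2 fold change -0.26), Gapdh (-0.23), Pgk1 (-0.12) and Pkm (-0.16) lay below 0 as well, with edgeR adjusted p of 0.201, 0.256, 0.32 and 0.318. Gapdh, often used as a reference gene, ranged from 2402 to 3714 CPM in vehicle and from 2000.0 to 2768 CPM in cotadutide mice. Processed copies of Gapdh, Eno1, Pgk1, Tpi1, Pgam1 and Aldoa exist in the mouse genome and can share reads with them, so small differences of these genes are uncertain.

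Phosphoglycerate mutase and enolase each have a muscle gene and a widely expressed one. Pgam2 (ENSMUSG00000020475, chr11:5801640-5803733), the muscle mutase, stood at 244, 314, 229 and 503 CPM in vehicle and at 235, 117, 62.0, 133 and 217 CPM in cotadutide mice. Only cotadutide mouse 1 overlapped the vehicle mice, and the difference narrowly missed the threshold (log2 fold change -1.07, SE 0.36, adjusted p = 0.0592 by edgeR). Pgam1 was at 265, 246, 210.2 and 213 CPM in vehicle and at 235, 218, 208, 235 and 222 CPM in cotadutide mice (log2 fold change -0.06, edgeR adjusted p = 0.657). Eno3 (ENSMUSG00000060600, chr11:70657202-70662513), the muscle enolase, stood at 635, 841, 607 and 1490 CPM in vehicle and at 604, 321, 180.3, 330 and 605 CPM in cotadutide mice. The groups did not overlap, by a margin of 605 against 607 CPM (log2 fold change -1.13, SE 0.37, adjusted p = 0.0541 by edgeR). Eno1 was at 2682, 2971, 2248 and 2022 CPM in vehicle and at 2358, 2873, 2105, 2354 and 2668 CPM in cotadutide mice (log2 fold change -0.005, SE 0.13, 95% interval -0.32 to 0.31, adjusted p = 0.982 by edgeR). DESeq2 called Pgam2 and Eno3 lower (adjusted p = 0.0464 and 0.0466), as did limma-voom (0.0498 and 0.0473).

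Of the enzymes that build glycogen, the one that supplies its building block passed the test. Ugp2 (ENSMUSG00000001891, chr11:21321138-21371201) makes UDP-glucose. It stood at 275, 282, 254 and 269.7 CPM in vehicle and at 204, 163, 127, 196 and 239 CPM in cotadutide mice. All vehicle mice lay above all cotadutide mice and close together, and Ugp2 fell 1.46 times (log2 fold change -0.54, SE 0.15, adjusted p = 0.032 by edgeR). It was called in more of the fits with 1 mouse left out than any other of the 35 genes, 5 of 9. Without vehicle mouse 1, 2 or 3 or cotadutide mouse 2 it missed the threshold (edgeR adjusted p = 0.0848, 0.0740, 0.0594 and 0.0805). The glycogen synthases add the glucose units. Gys1, the muscle and general form, was at 203, 189.8, 209.9 and 248 CPM in vehicle and at 218, 216, 188, 237 and 214 CPM in cotadutide mice (log2 fold change 0.01, SE 0.10, 95% interval -0.22 to 0.25, adjusted p = 0.94 by edgeR). Gys2, the liver form, was at 66.8, 68.8, 51.3 and 67.7 CPM in vehicle and at 69.2, 67.7, 47.9, 74.1 and 70.5 CPM in cotadutide mice (log2 fold change 0.05, edgeR adjusted p = 0.819). Gys1 overlaps Ruvbl2 on the other strand, so some reads of the pair may be confused. Gyg, the primer of the glycogen chain, was at 188 ± 39.4 and 207 ± 27.3 CPM (log2 fold change 0.14, edgeR adjusted p = 0.503). The branching enzyme Gbe1 was at 199 ± 34.5 and 167 ± 19.9 CPM (log2 fold change -0.25, edgeR adjusted p = 0.188). Without vehicle mouse 4, Gbe1 was lower (log2 fold change -0.36, edgeR adjusted p = 0.0245).

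Glycogen phosphorylases release glucose 1-phosphate from glycogen, and here too the muscle form stood apart. Pygm (ENSMUSG00000032648, chr19:6384399-6398459) was at 621, 728, 772 and 1277 CPM in vehicle and at 552, 229, 170.4, 393 and 607 CPM in cotadutide mice. The groups did not overlap, and its edgeR adjusted p of 0.0514 missed the threshold narrowly (log2 fold change -1.12, SE 0.36). DESeq2 called Pygm lower (adjusted p = 0.0341), as did limma-voom (0.0405). Pygl, the liver form, was at 442, 472, 457 and 365 CPM in vehicle and at 448, 500.2, 403, 516 and 540 CPM in cotadutide mice (log2 fold change 0.15, SE 0.11, adjusted p = 0.354 by edgeR). Pygb, the brain form, was at 111, 91.7, 126.1 and 71.7 CPM in vehicle and at 86.7, 88.3, 92.1, 89.5 and 103.9 CPM in cotadutide mice (log2 fold change -0.12, edgeR adjusted p = 0.558). Vehicle mouse 4 had the most Pygm and the least Pygl and Pygb of its group.

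Phosphorylase kinase switches the phosphorylases on, and both of its muscle subunits fell. Phka1 (ENSMUSG00000034055, chrX:102513975-102644246), the regulatory subunit of muscle, stood at 51.1, 70.5, 64.3 and 88.9 CPM in vehicle and at 42.7, 19.5, 19.6, 34.7 and 45.2 CPM in cotadutide mice. The groups did not overlap, and the mean fell 2.13 times (log2 fold change -1.09, SE 0.26, adjusted p = 0.024 by edgeR). Phkg1, the catalytic subunit of muscle, stood at 48.2, 77.9, 60.2 and 99.1 CPM in vehicle and at 54.2, 23.4, 16.8, 30.4 and 47.4 CPM in cotadutide mice. It fell 2.07 times (log2 fold change -1.05, SE 0.32, adjusted p = 0.0461 by edgeR), with 1 cotadutide mouse inside the vehicle range. Phkg1 overlaps Chchd2 on the same strand, a gene with a mean of 12718.8 counts per library against 966.2, so some of its reads may be miscounted. Both calls were lost without any of the vehicle mice or without cotadutide mouse 2 or 4, with an edgeR adjusted p of 0.0527 to 0.0688 for Phka1 and 0.0747 to 0.148 for Phkg1. That of Phkg1 was also lost without cotadutide mouse 3 (edgeR adjusted p = 0.0746).

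The regulatory subunits that tether protein phosphatase to glycogen did not pass. Ppp1r3d came nearest. It stood at 21.6, 21.6, 22.8 and 23.3 CPM in vehicle and at 24.1, 46.7, 30.7, 27.5 and 30.1 CPM in cotadutide mice. Every cotadutide mouse lay above every vehicle mouse (log2 fold change 0.51, SE 0.16, adjusted p = 0.0505 by edgeR). Ppp1r3c was at 95.5, 126.2, 71.1 and 279.8 CPM in vehicle and at 110.4, 53.7, 79.4, 116 and 114 CPM in cotadutide mice (log2 fold change -0.59, SE 0.37, adjusted p = 0.27 by edgeR). Its estimate rested on vehicle mouse 4 and was -0.04 without it. Ppp1r3b was at 122 ± 19.6 and 113 ± 19.9 CPM (log2 fold change -0.12, edgeR adjusted p = 0.583).

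Set against the other isoforms within each library, the muscle isoforms had lower mean ratios in cotadutide mice, and none of these differences passed after adjustment. Such ratios do not depend on how libraries are scaled. The count ratio of Pfkm to Pfkl and Pfkp together was 0.503, 0.541, 0.786 and 0.730 in vehicle and 0.331, 0.196, 0.177, 0.275 and 0.407 in cotadutide mice, without overlap. The difference in mean log2 ratio was -1.25 (exact two-sided permutation p = 0.0159, adjusted over 8 ratios 0.0952). For Pygm against Pygl and Pygb the ratio was 1.12, 1.29, 1.32 and 2.93 in vehicle and 1.03, 0.389, 0.344, 0.648 and 0.943 in cotadutide mice, again without overlap. The log2 ratio differed by -1.34 (exact permutation p = 0.0238, adjusted 0.0952). Pgam2 against Pgam1 ran from 0.919 to 2.37 in vehicle and from 0.298 to 1.00 in cotadutide mice, with overlap (difference -1.10, exact permutation p = 0.0556, adjusted 0.102). Eno3 against Eno1 ran from 0.237 to 0.737 and from 0.0857 to 0.256, also with overlap (difference -1.17, exact permutation p = 0.0397, adjusted 0.102). None of the other ratios passed either, and the division of 9 mice into 4 and 5 allows no p under 0.00794. A single ratio at that p would not pass after adjustment over 8 ratios. Without both vehicle mouse 4 and cotadutide mouse 3 the 4 differences were -1.03, -0.82, -0.55 and -0.60. Per length of transcript, Pfkm made up 45.2 ± 5.43% of the phosphofructokinase mRNA in vehicle and 26.2 ± 6.69% in cotadutide mice. Pygm went from 62.2 ± 9.41% to 40.2 ± 11.7% of phosphorylase, Pgam2 from 73.0 ± 7.45% to 56.3 ± 12.1% of the mutase pair, and Eno3 from 31.3 ± 11.8% to 17.1 ± 6.45% of the enolase pair. Gys2 against Gys1, a pair with no muscle-only gene, differed by 0.03 (exact permutation p = 0.841, adjusted 0.905). Aldoc against Aldoa differed by 0.86 (exact permutation p = 0.0635, adjusted 0.102) and rests on very few Aldoc reads.

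**Figure D3:**
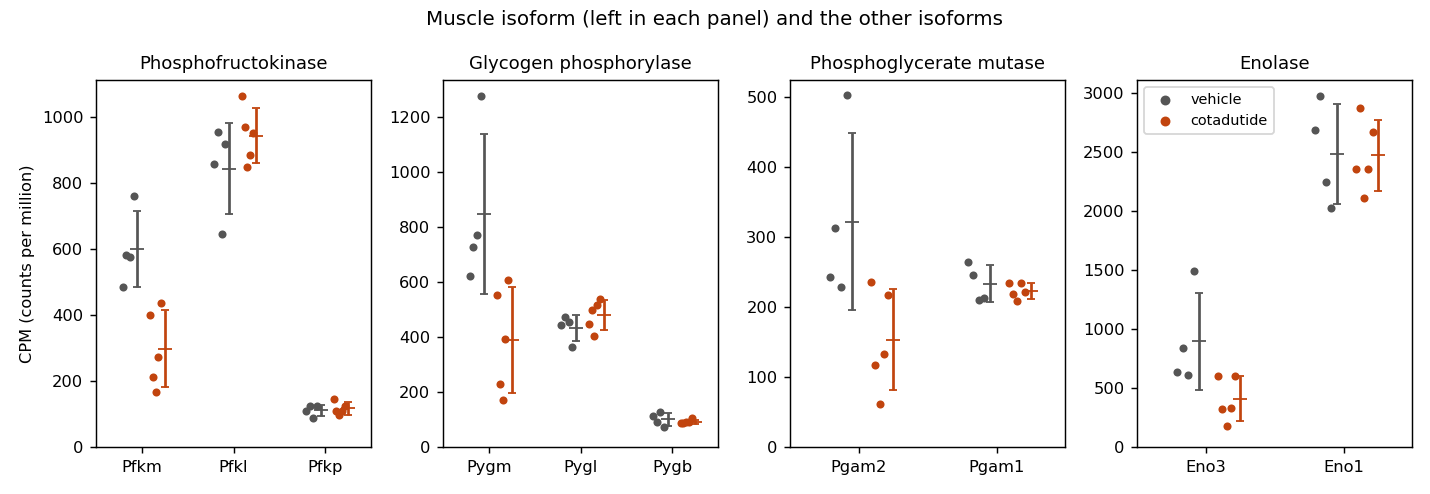
CPM (vertical axis) of the muscle isoform and the other isoforms of 4 enzymes in each vehicle (grey) and cotadutide (orange) mouse, with mean and SD bars. Pfkm, Pygm, Pgam2 and Eno3 are lower on average in cotadutide mice, while Pfkl, Pygl, Pgam1 and Eno1 overlap.

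Skeletal muscle mRNA differed between the groups in the same direction as the muscle isoforms. Of the 28 muscle markers, 15 fell, 0 rose and all 28 had a negative estimate, with a median log2 fold change of -1.21. Over all genes tested, 9.34% were called lower. Myh4, the myosin of fast fibres, had a mean of 5374 ± 1792 CPM under vehicle and of 2039 ± 949.7 CPM under cotadutide. Acta1, skeletal actin, was at 4710.0 ± 1712 and 1980.0 ± 992 CPM, and Ckm, muscle creatine kinase, at 4057 ± 2287 and 1998 ± 966 CPM. In bulk tissue, fewer cells of a type and less RNA per cell cannot be told apart. Per 1000 CPM of these 28 markers, Pygm was at 20.8, 20.8, 22.8 and 21.5 CPM in vehicle and at 21.6, 19.4, 25.5, 23.8 and 25.0 CPM in cotadutide mice. On the same scale Pgam2 ran from 6.77 to 8.97 and from 8.08 to 9.94, Eno3 from 18.0 to 25.1 and from 20 to 27.2, and Pfkm from 12.8 to 17.0 and from 15.7 to 25.0. All 4 overlapped between the groups. Scaled to muscle mRNA, none of the 4 was lower in cotadutide mice on average. Pfkl, the liver subunit, ran from 15.4 to 28.7 in vehicle and from 39.2 to 127 in cotadutide mice on this scale. Its own CPM differed little (log2 fold change 0.16), so on this scale it had to be higher where the muscle marker sum was lower.

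**Figure D4:**
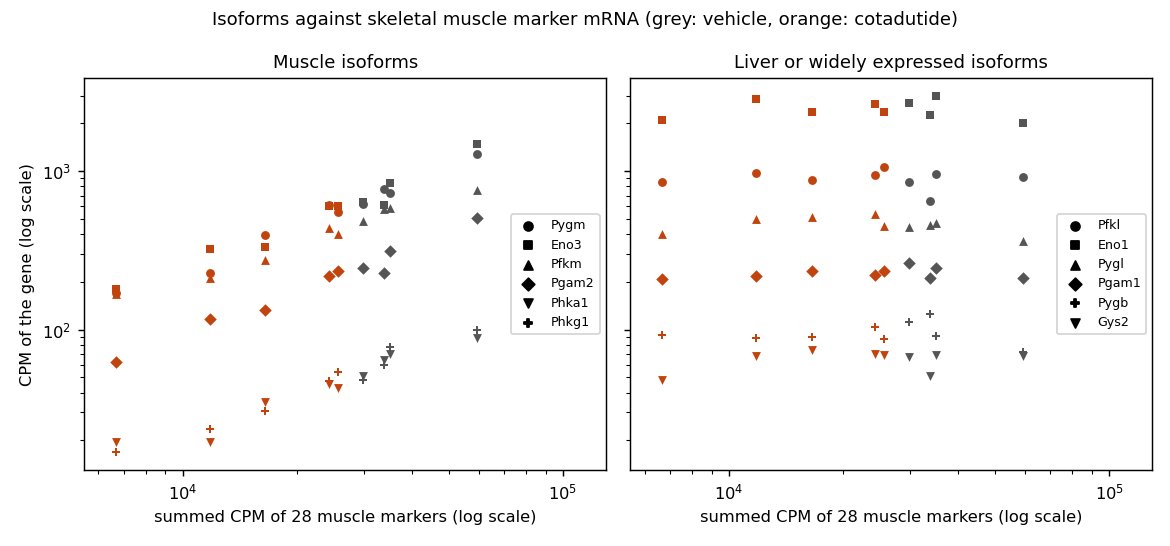
CPM of each gene (vertical axis, log scale) against the summed CPM of 28 skeletal muscle markers (horizontal axis, log scale), 1 point per mouse and gene, with vehicle in grey and cotadutide in orange. The muscle isoforms at left climb from the mouse with 6680 CPM of muscle markers to the one with 59400 CPM. The liver or widely expressed isoforms at right show no such shared climb. Among them, Eno1, Pygl and Pygb are lowest in the mouse with 59400 CPM, and Gys2 in the mouse with 6680 CPM.

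Fitted with the muscle score of each library as a further term, none of the 35 genes was called, nor any of the 14747 genes. The score is the mean log2 CPM of the 28 markers, and it was 9.48 to 10.1 in vehicle and 7.04 to 9.19 in cotadutide mice. It did not overlap between groups, so treatment and muscle content cannot be fully told apart. In that fit the median log2 fold change of the 6 muscle isoforms was 0.06, that of the 34 tested genes 0.09 and that of all genes 0.014. Unadjusted p fell under 0.05 for 5 of the 34, all with positive estimates, against 12.7% of all genes. These were Pfkfb1 (0.64), Gyg (0.48), Pfkp (0.40), Slc2a4 (0.38) and Gys2 (0.37), with edgeR unadjusted p of 0.0138, 0.0245, 0.0275, 0.0378 and 0.0448. Ugp2 and Pfkfb4, which are not muscle-only genes, went from -0.54 and -0.88 to -0.09 and -0.09. Per 1000 CPM of the 28 markers, Pfkfb4 ran from 0.25 to 0.281 in vehicle and from 0.296 to 0.639 in cotadutide mice, without overlap. On that scale Ugp2 ran from 4.54 to 9.21 and from 7.97 to 19.0, with overlap. Whether either gene follows muscle mRNA was not tested.

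**Figure D5:**
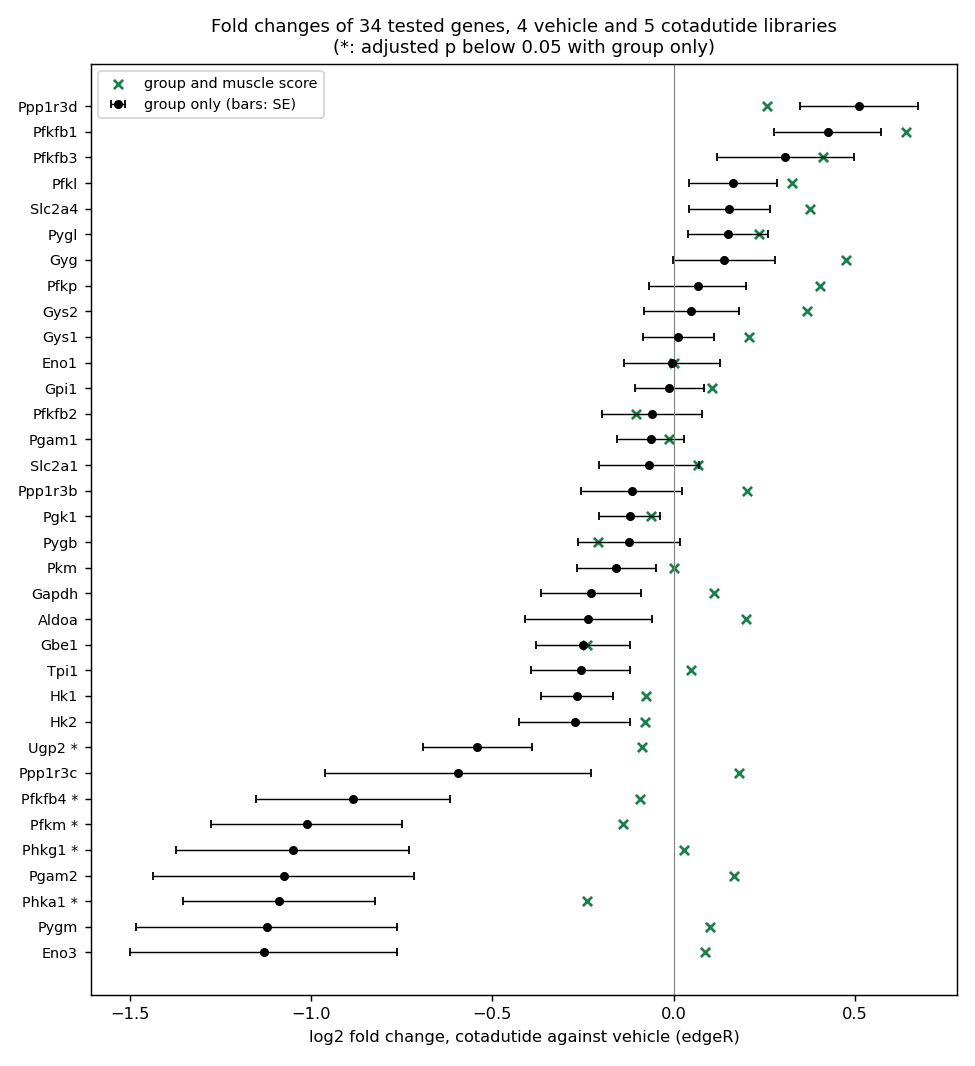
Log2 fold change, cotadutide against vehicle (horizontal axis), of the 34 tested genes by edgeR with the group alone (black, bars are SE) and with the muscle score of the library added (green crosses). The muscle isoforms at the bottom, near -1 with the group alone, lie between -0.24 and 0.17 with the score added.

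Markers of other cells are given beside the shares over all genes tested, 9.34% called lower and 9.31% higher. Macrophage markers fell for 7 of 12, with a sum of 285 to 456 CPM in vehicle and 175 to 359 CPM in cotadutide mice, and Lyz2 had the most counts. Of the markers shared by adipocytes, 6 of 10 rose and 0 fell (sum 20000.0 to 23700.0 against 27250.0 to 32560.0 CPM), and of the brown adipocyte markers 5 of 12 rose and 0 fell. No fibroblast marker of 8 passed, with a median log2 fold change of -0.66. Endothelial markers had 1 of 10 higher, near the share over all genes. Neutrophil markers summed to at most 6.76 CPM, with Ngp at 0 in every library. Of the liver markers, Alb was at 0.144 and 0.205 CPM, and Cyp2e1, which fat cells also express, made up most of the list's level. The part of these cell types in the results on glucose and glycogen genes was not tested.

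The pathway genes beyond the 35 were described from 4 further lists, and no list was tested as a whole. Over all genes tested, 9.34% were called lower and 9.31% higher. The groups did not overlap for 7.79% with cotadutide lower and for 8.06% with cotadutide higher. Among 20 genes of other glucose carriers and of GLUT4 traffic, 18 were tested, 2 rose and 2 fell, not far from those shares. Slc2a8, an intracellular glucose carrier, rose 1.33-fold from 15.8 ± 0.958 to 21.1 ± 1.43 CPM, without overlap (log2 fold change 0.41, SE 0.08, adjusted p = 0.0163 by edgeR). Stx4a, a syntaxin of the surface membrane with which GLUT4 vesicles fuse, rose 1.22-fold (edgeR adjusted p = 0.0455). Stxbp3, which binds that syntaxin, fell 1.36 times (edgeR adjusted p = 0.0319), and Tbc1d1, a brake on GLUT4 vesicles, fell 1.34 times (edgeR adjusted p = 0.0414). Slc2a8 was called in 7 of the 9 fits with 1 mouse left out, and missed without vehicle mouse 1 or 2 (edgeR adjusted p = 0.0523 and 0.0563). Stx4a was called only without vehicle mouse 4 or cotadutide mouse 4, Tbc1d1 only without vehicle mouse 4 or cotadutide mouse 5, and Stxbp3 only without vehicle mouse 4 or cotadutide mouse 1, 4 or 5.

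Among 20 other genes of glycolysis and gluconeogenesis, 13 were tested, 2 rose and 2 fell, against 9.31% and 9.34% of all genes. Tigar, a fructose bisphosphatase that slows glycolysis, fell 1.73 times (37.6 ± 7.52 against 21.8 ± 5.97 CPM, edgeR adjusted p = 0.0252). Khk, which phosphorylates fructose, rose 1.47-fold (17.9 ± 2.49 against 26.3 ± 4.81 CPM, edgeR adjusted p = 0.0245). Mlxipl, which encodes the glucose-sensing factor ChREBP, rose 1.28-fold (236 ± 26.4 against 303 ± 15.9 CPM, edgeR adjusted p = 0.0277). The groups did not overlap for any of these 3. With 1 mouse left out, Tigar missed without vehicle mouse 1 or 2 or cotadutide mouse 2 (edgeR adjusted p = 0.0606, 0.068 and 0.0606). Khk was called only without vehicle mouse 4 or cotadutide mouse 1, 4 or 5, and Mlxipl only without vehicle mouse 4 or cotadutide mouse 1.

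Among 20 other glycogen genes, all tested, 2 rose and 6 fell, against 9.31% and 9.34% of all genes. Phkb, the subunit shared by all phosphorylase kinases, fell 1.61 times (log2 fold change -0.69, edgeR adjusted p = 0.0197). Epm2a, the glycogen phosphatase laforin, fell 1.48 times (edgeR adjusted p = 0.0204), and Pgm2l1 fell 1.47 times (edgeR adjusted p = 0.014). The groups did not overlap for any of these 3. Pgm2l1 was called with any 1 mouse left out. Without vehicle mouse 1 or 2, Phkb missed (edgeR adjusted p = 0.0521 and 0.0543), and so did Epm2a (0.0518 and 0.0547), which also missed without cotadutide mouse 2 (0.0506). The liver subunits of phosphorylase kinase, Phka2 and Phkg2, had log2 fold changes of -0.07 and 0.04 (edgeR adjusted p = 0.73 and 0.802). Also called were Ppp1r3a, the glycogen-targeting subunit of muscle (lower), Ppp1cb (lower), Ppp1ca (higher) and Ppp1r3g (higher, from 0.32 to 2.56 CPM on average). Among 10 genes of the pentose phosphate pathway, all tested, 1 rose and 0 fell, so the higher count was near the share over all genes. Pgls, a lactonase early in the pathway, rose 1.56-fold (87.9 ± 15.7 against 137 ± 27.5 CPM, edgeR adjusted p = 0.0215) and missed without vehicle mouse 1, 2 or 3 (edgeR adjusted p = 0.0699, 0.0677 and 0.0671).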

How the data were processed

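The authors deposited unnormalized read counts for each Ensembl gene of each library. Tools in the submitters' processing notes are bcl2fastq 2.17, Trimmomatic 0.36, STAR 2.5.2b and Subread 1.5.2 (featureCounts), with mm10 as the build. How featureCounts treated strand and multi-mapped reads, and the annotation release, is not given in the sources used here, so overlapping genes and processed copies may share reads. Libraries were made from polyadenylated RNA, per the labels' protocols.

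Of 49315 identifiers, 48970 matched a symbol, and the 345 others took 0.031% of the counts. After edgeR's filterByExpr, 14747 genes with 99.87% of the counts were tested in edgeR 4.0.16 (R 4.3.3; glmQLFit with robust dispersion, glmQLFTest), with the group as the only term, trimmed mean of M values factors of 0.914 to 1.06 and Benjamini-Hochberg adjustment at 0.05. The common biological coefficient of variation was 17%. Standard errors were the log2 fold change over the root of F, and 95% intervals used 7 residual degrees of freedom, without those that edgeR borrows across genes. Alternatives were DESeq2 1.42.0, limma-voom (limma 3.58.1), other filters and scaling, a replicate block, the muscle score as a covariate, and each library left out. Isoform ratios were tested by exact two-sided permutation of the mice between groups. Per-length levels used the longest protein-coding GENCODE transcript. No 2 libraries agreed within counting noise (lowest chi-square per degree of freedom 10.04), and mice were separate animals with 1 library each. Depth is 10.8 to 25.1 M counts.

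All 35 genes are accounted for. Values per mouse are given for genes in the ratios, genes called and the most abundant gene of a step, and for the other lists up to 4 called genes with the smallest p, of which some are not reported here. Other called glycogen genes (Ppp1r3a, Ppp1r3g, Ppp1ca and Ppp1cb), Phka2, Phkg2 and some further values per mouse were added after their values were seen. The members, lists and tests were chosen with earlier results of these data known. The fits were tested on simulated data.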

Additional observations from a re-analysis of the deposited data

Results flagged for a closer look

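In 112 sets of 4 or 5 mice examined (each gene or ratio in each group), 10 had 1 mouse far from the rest by Dixon's criterion (gap over range above 0.829 for 4 mice and 0.71 for 5). Chance flags about 1 in 20 such sets.

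Vehicle mouse 4, which had the most muscle mRNA, was the highest of its group in Gyg (247 CPM, others 165 to 171) and in the log2 ratio of Eno3 to Eno1 (-0.44, others -2.08 to -1.82), and the lowest in Tbc1d1 (8.91 CPM, others 12.0 to 12.3). Cotadutide mouse 3, which had the least muscle mRNA, was the lowest of its group in Slc2a4 (291 CPM, others 342 to 352), in Gys2 (47.9 CPM, others 67.7 to 74.1) and in the log2 ratio of Gys2 to Gys1 (-1.97, others -1.68 to -1.60). Vehicle mouse 3 was the lowest in Gys2 (51.3 CPM, others 66.8 to 68.8). Cotadutide mouse 2 was the highest in Ppp1r3d (46.7 CPM, others 24.1 to 30.7) and in Pgls (185 CPM, others 116 to 135). Vehicle mouse 1 was the lowest in Mlxipl (197 CPM, others 247 to 253). What sets these mice apart was not tested.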

How the results depend on the processing

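Of the 35 genes, edgeR called 0 higher and 5 lower. DESeq2 called 2 higher and 8 lower and limma-voom 1 and 8. Without a filter on low counts 1 was lower, with a stricter one 8, and with the muscle score 0. With 1 mouse left out the counts ran from 0 to 1 higher and 0 to 8 lower. With both vehicle mouse 4 and cotadutide mouse 3 left out, an alternative added after seeing the data, they were 2 and 2 (Pfkfb1 and Gyg higher, Ugp2 and Gbe1 lower). Over all genes, 1373 higher and 1378 lower became 900 higher without the filter and 0 and 0 with the muscle score, and ran from 42 to 2116 higher and 92 to 1724 lower with 1 mouse left out. By DESeq2, 1674 genes were higher and 1718 lower (11.4% and 11.6% of those tested), and by limma-voom 1508 and 1482 (10.2% and 10%). Without the filter 1264 of 28583 genes were lower (4.42%). With the stricter one 1187 of 13396 were higher (8.86%) and 1599 lower (11.9%). With both vehicle mouse 4 and cotadutide mouse 3 left out, 12.7% of all genes were higher and 9.55% lower. The cause of these shifts was not tested.

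Mice of the same number did not deviate together (correlations 0.135, -0.04, 0.0229 and -0.0107), so no pairing by number was seen. So few correlations cannot exclude a pairing. With the replicate block, 516 genes were higher and 768 lower (3.5% and 5.21% of those tested), and 4 of the 35 genes were lower (Pfkm, Ugp2, Pygm and Phka1). The log2 ratio of Gys2 to Gys1 then differed by -0.001, and the paired sign-flip test of a ratio allows no p under 0.125.

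Some estimates changed sign. Near 0 were Eno1, which became 0.006 by limma-voom, and Gys1, which became -0.03 without a filter and -0.015 with a stricter one. With the muscle score the log2 fold change became 0.066 for Slc2a1, 0.105 for Gpi1, 0.199 for Aldoa, 0.049 for Tpi1, 0.112 for Gapdh, 0.165 for Pgam2, 0.002 for Eno1, 0.087 for Eno3, 0.001 for Pkm, 0.099 for Pygm, 0.203 for Ppp1r3b, 0.18 for Ppp1r3c and 0.028 for Phkg1. Of these, Pgam2 (-1.075), Eno3 (-1.131), Pygm (-1.123), Phkg1 (-1.051) and Ppp1r3c (-0.594) were far from 0 with the group alone. With vehicle mouse 4 and cotadutide mouse 3 left out, the log2 fold change became 0.04 for Gpi1, 0.043 for Aldoa and 0.017 for Ppp1r3c. The log2 ratio of Hk2 to Hk1 then differed by 0.068. With 1 mouse left out, the estimates ran from -0.084 to 0.027 for Gpi1, -0.119 to 0.003 for Pgam1, -0.09 to 0.087 for Eno1, -0.047 to 0.096 for Gys1, -0.054 to 0.128 for Pfkp and -0.049 to 0.12 for Gys2. The ratio differences ran from -0.098 to 0.079 for Hk2 to Hk1 and from -0.069 to 0.121 for Gys2 to Gys1. No ratio passed an adjusted p of 0.05 under any alternative.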
